A study of Mus musculus with 4 samples.

Results

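The genes described are 3 fibroblast growth factor (FGF) ligands, Fgf8, Fgf17 and Fgf18, and 7 genes of the response to FGF signalling: the Sprouty genes Spry1, Spry2 and Spry4, the phosphatase gene Dusp6 and the ETS transcription factor genes Etv1, Etv4 and Etv5. They were taken by name, 10 of the 32285 genes listed, with earlier results of these data known. Their RNA was measured by droplet single-cell RNA sequencing of tdTomato-positive cells sorted from embryonic mouse cerebellum at E14.5. The 2 control libraries carried Atoh1-Cre/+ and R26LSL-tdT/+. The 2 En1/2 CKO (conditional knockout) libraries carried the same alleles together with En1lox/lox and En2lox/lox. In both groups Cre is thus made only where the Atoh1 driver is active, and tdTomato marks cells with that history. Loss of En1 and En2 is likewise limited to cells of that lineage. Animals were pooled for each library. The labels speak of replicate experiments without saying which libraries belong together, and p-values measure only the spread between these pooled libraries.

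FGF ligands bind receptor tyrosine kinases and activate the RAS-ERK cascade. Fgf8, Fgf17 and Fgf18 are the related ligands of the isthmic organizer at the border of midbrain and hindbrain, which patterns the cerebellum. Etv4 and Etv5 are ETS factors switched on downstream of the cascade, and Etv1 is their close relative. Sprouty proteins and the ERK phosphatase DUSP6 are induced by the same cascade and dampen it. En1 and En2 are homeobox genes of the same region, and Atoh1 marks the rhombic lip precursors from which the glutamatergic cerebellar neurons arise.

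Cells were read in 3 classes. Meis2-high cells had more Meis2 than Pax6 UMIs (unique molecular identifiers, counts of captured RNA molecules), Pax6-high cells the reverse, and Atoh1-positive cells at least 1 Atoh1 UMI. The Atoh1-positive class overlaps both others. Meis2 is known from excitatory cerebellar nuclei neurons and Pax6 from the granule cell lineage. Listed markers of excitatory nuclei neurons summed to between 1451 and 2014 CPM (the class's UMIs scaled to a common library total) in Meis2-high cells and to between 670 and 1042 CPM in Pax6-high cells, and 6 of the 8 were called lower in the latter. Granule lineage markers differed less, at 2032 to 3160 CPM in Meis2-high and 2648 to 2943 CPM in Pax6-high cells, with 6 of 8 called higher and 1 lower in Pax6-high cells. All 6 tested precursor markers were called higher there. Of the isthmus markers, Wnt1, Pax8, Lmx1b and Gbx2 stood at no more than 2.36 CPM in any class and library, whereas Pax5 reached 409 CPM and Cnpy1 140 CPM. Otx2, also on this list of 7 isthmus and midbrain markers, stood at 11.7 to 51.7 CPM in Pax6-high cells with Atoh1, without scaling between libraries. The list summed to between 418 and 557 CPM in Meis2-high cells, so only part of it was at or near 0.

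The libraries held 2911 and 3931 kept cells in control replicates 1 and 2, and 2007 and 3697 in CKO replicates 1 and 2. Between 372 and 2322 cells per library were Meis2-high, 961 to 2978 were Pax6-high and 397 to 1616 were Atoh1-positive. Libraries shared between 1 and 6 cell barcodes in each pair. The CKO libraries were deeper in Pax6-high cells, with medians of 13723 and 9819 UMIs per cell against 3238 and 2339 in the controls. In Meis2-high cells the medians lay between 2172 and 3110, though those with an Atoh1 UMI were deeper in the CKO libraries. Haemoglobin and other erythroid RNA stood at 2529 CPM in the Meis2-high cells of control replicate 2, against 3.93 to 29.2 CPM in the other libraries. In Atoh1-positive cells it was highest in the controls, at 1823 and 513 CPM, and at 4.24 and 2.11 CPM in the CKO libraries. In the 17 cells with at least 10% haemoglobin UMIs no FGF ligand or feedback gene had a UMI, which limits free RNA from them only to 23.2 CPM at 3 counts and to 17.6% of cells. The targeted En2 fell in Meis2-high cells, from 246 and 193 CPM in the controls to 48.7 and 43.8 CPM in the CKO libraries (log2 fold change −2.24, SE 0.23, edgeR adjusted p = 0.0177). En1 RNA was at 537 and 475 CPM in the controls and 360 and 742 CPM in the CKO libraries. The files do not give where in the gene its UMIs lie, so they do not check the deletion.

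Among the ligands, Fgf17 was a gene of Meis2-high cells and above all of those that still had Atoh1 RNA, while Fgf8 was low in both classes, with more UMIs in Pax6-high than in Meis2-high cells of each library. Fgf17 (ENSMUSG00000022101; GRCm38 chromosome 14, 70636203 to 70642268, minus strand) had 575 UMIs in 239 of 12546 kept cells. In Meis2-high cells its level was 18.9 and 13.97 CPM in control replicates 1 and 2, and 64.4 and 26.9 CPM in CKO replicates 1 and 2. In Pax6-high cells the levels were 2.38, 1.51, 1.43 and 1.55 CPM. Every library was thus higher in Meis2-high cells. Pax6-high cells differed from Meis2-high cells by a log2 fold change of −4.16 (SE 0.33, edgeR adjusted p = 9.33e-07, lower in 4 of 4 libraries). Here, as in the other comparisons of classes, each library served as its own block.

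Dividing Meis2-high cells by an Atoh1 UMI placed the Fgf17 signal more narrowly. In Meis2-high cells with Atoh1, Fgf17 stood at 69.0, 53.8, 92.7 and 46.4 CPM in control replicates 1 and 2 and CKO replicates 1 and 2, from 87, 195, 183 and 76 cells. Those without Atoh1 had 5.88, 8.56, 9.24 and 9.58 CPM, and Pax6-high cells with Atoh1 had 2.998, 2.61, 1.25 and 1.56 CPM. The lowest library of the first group was above the highest library of either other group. Meis2-high cells with Atoh1 made up 14.4%, 8.40%, 31.9% and 20.4% of the Meis2-high class and held 76.9%, 43.9%, 94.5% and 81.2% of its Fgf17 UMIs. These divided levels are a description with no test. Over all cells, Atoh1-positive cells had more Fgf17 than Atoh1-negative cells (log2 fold change 1.50, SE 0.25, edgeR adjusted p = 2.53e-04, higher in 4 of 4 libraries).

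**Figure D1:**
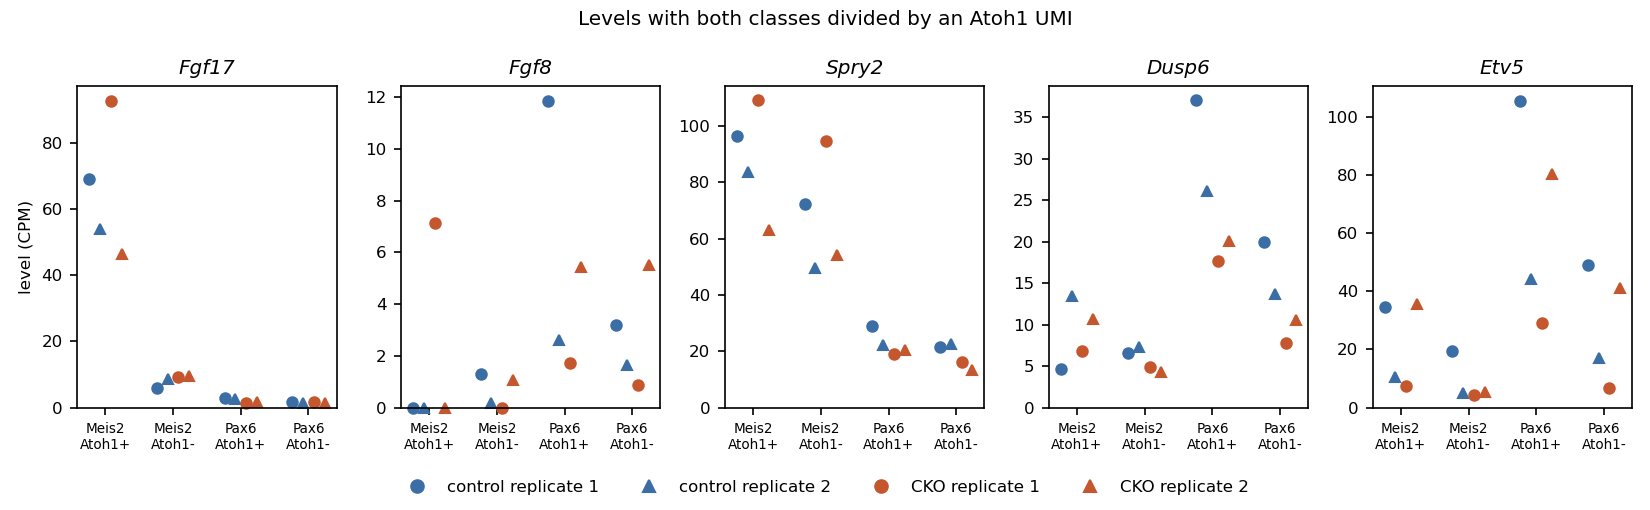
Level in CPM (vertical axes, linear) of 5 genes in Meis2-high and Pax6-high cells with (Atoh1+) or without (Atoh1-) an Atoh1 UMI, 1 point per library, blue for control and orange for CKO. Fgf17 stands at 46.4 to 92.7 CPM in Meis2-high cells with Atoh1 and at no more than 9.58 CPM in the other groups, while Etv5 and Dusp6 are highest in Pax6-high cells with Atoh1.

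Fgf8 (ENSMUSG00000025219; chromosome 19, 45736798 to 45742915, minus strand) had 322 UMIs in 180 cells. In Pax6-high cells it stood at 8.04, 1.82, 1.63 and 5.65 CPM in control replicates 1 and 2 and CKO replicates 1 and 2, from 98, 6, 25 and 160 UMIs. Control replicate 1 and CKO replicate 2 were the high libraries, so both groups overlapped. In Meis2-high cells there were 2, 1, 20 and 1 UMIs, and the 20 of CKO replicate 1 came from 3 cells. That library ran the other way in level, at 4.53 CPM in Meis2-high and 1.54 CPM in Pax6-high cells without TMM scaling. Under the low-count filter the gene was too low for a test between these classes. With no filter it was among the 8 FGF genes called. Atoh1-positive cells had more Fgf8 than Atoh1-negative cells, by a log2 fold change of 1.15 (SE 0.35, edgeR adjusted p = 0.0133). Without control replicate 1 it was 0.72 and not called. Within Pax6-high cells Fgf8 stood at 11.9, 2.61, 1.72 and 5.45 CPM with Atoh1 and at 3.21, 1.66, 0.861 and 5.51 CPM without. These values have no TMM scaling and no test, and CKO replicate 2 showed no rise with Atoh1. All 20 Fgf8 UMIs in Meis2-high cells of CKO replicate 1 lay in cells with Atoh1. Fgf18 (ENSMUSG00000057967; chromosome 11, 33117430 to 33147400, minus strand) had 21 UMIs in 21 cells, at most 0.68 CPM in any class and library, and entered no test.

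Cells bearing either ligand differed from the rest of their class in other regional genes. Pax6-high cells with an Fgf8 UMI numbered 44, 6, 15 and 99 in control replicates 1 and 2 and CKO replicates 1 and 2. In them Sp5, a transcription factor gene known as a target of FGF and Wnt signals, stood at 359, 139, 313 and 248 CPM, against 155, 76.4, 121 and 124 CPM in Pax6-high cells without Fgf8. Otx2, a homeobox gene, stood at 76.8, 79.3 and 96.7 CPM in 3 libraries, against 32.4, 35.3 and 41.2 CPM. In the 6 cells of control replicate 2 it had no UMI, which allows up to 104 CPM. Both genes were thus higher beside Fgf8 wherever the counts could show it, though Sp5 in control replicate 2 rested on 4 UMIs. Pax5 went the other way, at 7.14, 4.41 and 11.5 CPM in control replicate 1 and CKO replicates 1 and 2, against 42.6, 20.9 and 22.9 CPM. In control replicate 2 it had 0 UMIs beside Fgf8. Cells with an Fgf8 UMI were deeper, with medians of 13826.5, 3067, 15109 and 12726 UMIs against 3193, 2323, 13706 and 9607. These levels are descriptions with no test. No Fgf17 UMI was seen in these Pax6-high cells, but 0 counts allow 5.36, 104, 13.2 and 2.15 CPM, against 2.61, 1.59, 1.37 and 1.58 CPM in the other Pax6-high cells of the same libraries, so a difference was not detectable at this depth.

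Meis2-high cells with an Fgf17 UMI numbered 19, 51, 60 and 23. In them Cnpy1, a gene for a modulator of FGF receptors, stood at 392, 278, 123 and 104 CPM, against 130, 128, 81.2 and 71.1 CPM in those without. Spry2 was also higher beside Fgf17 in each library, at 93.8, 80.1, 133 and 99.3 CPM against 76.8, 52.3, 96.1 and 52.3 CPM. Flrt3, a receptor-binding membrane protein gene, was lower beside Fgf17 in each library, at 25.6, 80.1, 87.9 and 38.9 CPM against 86.0, 97.2, 98.1 and 61.4 CPM. Etv1 was lower too in the CKO libraries, at 13.8 and 13.0 CPM against 31.7 and 46.5 CPM, from 13 and 3 UMIs. In the controls it stood at 17.1 and 14.1 CPM against 21.1 and 15.3 CPM, from 2 and 3 UMIs. There 3 counts amount to 25.6 and 14.1 CPM, so these counts could not show a lower level. Of the 20 Fgf8 UMIs in Meis2-high cells of CKO replicate 1, 11 lay in cells that also had Fgf17, and the other libraries had 0 there. Etv5 had 0, 0, 3 and 1 UMIs in the Fgf17-bearing cells. The limits of 3 counts, 25.6, 14.1, 3.18 and 12.96 CPM, lay below the 24.3, 5.83, 7.19 and 22.0 CPM of the other cells only in the CKO libraries. Cells with an Fgf17 UMI were deeper, with medians of 2947 to 14760 UMIs against 2160 to 2879, and all these levels are descriptions with no test.

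The feedback genes did not move as 1 block between the classes. Spry2 and Spry1 were called lower in Pax6-high than in Meis2-high cells, Dusp6, Etv5, Etv4 and Etv1 were called higher, and Spry4 did not pass the test. Of the 8 genes tested 4 were thus called higher and 3, Fgf17 included, lower. Over all 12387 genes tested 27% were called higher and 25.3% lower, so calls in both directions were common in this comparison. Precursor markers were higher in Pax6-high cells too. So were 5 of 6 tested dissociation response genes and 4 of 6 ventricular zone and glia markers. The part of these lists in the differences was not tested. Without Atoh1-positive cells, 6 of the genes were called in the same directions, and Spry1 could not be fitted for lack of counts.

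**Figure D2:**
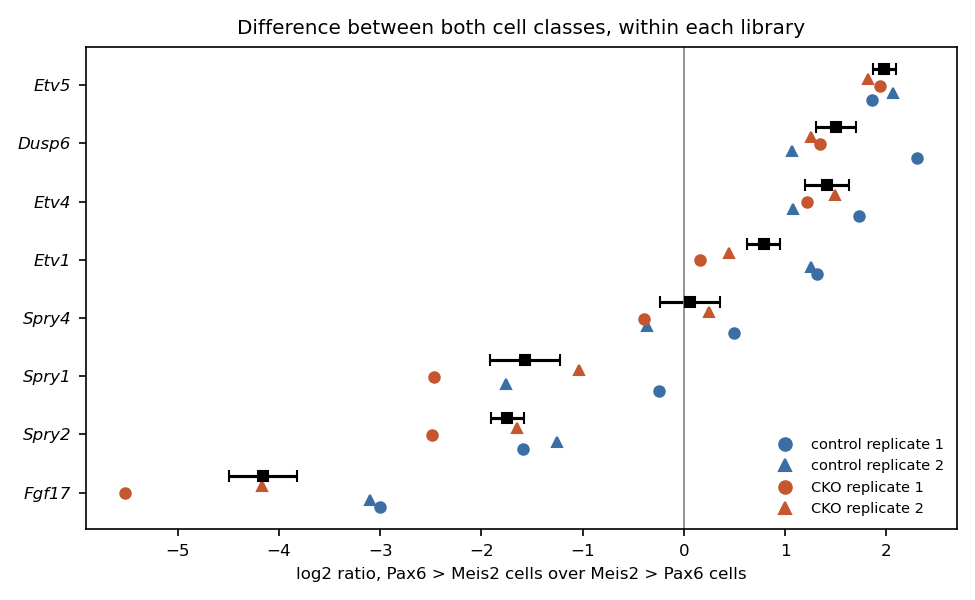
Log2 ratio of Pax6-high over Meis2-high cells (horizontal axis) for the 8 genes tested. Coloured points are the ratios of CPM within each library and black squares the fitted differences with SE. The 4 libraries lie on 1 side of 0 for each gene except Spry4.

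Spry2 (ENSMUSG00000022114; chromosome 14, 105891947 to 105896819, minus strand) encodes the Sprouty protein with the most UMIs here, 2436. Its level in Meis2-high cells was 74.3, 54.9, 108 and 58.4 CPM in control replicates 1 and 2 and CKO replicates 1 and 2, against 24.8, 21.5, 19.6 and 19.2 CPM in Pax6-high cells. Both ranges were apart. The log2 fold change was −1.74 (SE 0.16, edgeR adjusted p = 2.76e-06). Inside the Meis2-high class Spry2 stood at 96.6, 83.8, 109 and 63.1 CPM with Atoh1 and 72.5, 49.5, 94.9 and 54.3 CPM without. Atoh1-positive cells as a whole did not differ from Atoh1-negative cells beyond the error (log2 fold change 0.10, SE 0.09, edgeR adjusted p = 0.402).

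Spry1 (ENSMUSG00000037211; chromosome 3, 37639947 to 37644598, plus strand), which overlaps an antisense gene model in GENCODE M21, stood at 2.92, 7.67, 14.1 and 3.37 CPM in Meis2-high cells and at 2.46, 2.12, 2.60 and 1.70 CPM in Pax6-high cells. The difference was −1.57 on the log2 scale (SE 0.35, edgeR adjusted p = 0.00217), and −0.9998 (edgeR adjusted p = 0.0486) without CKO replicate 1. Spry4 (ENSMUSG00000024427; chromosome 18, 38586247 to 38601415, minus strand) was low throughout, at 2.35 to 3.89 CPM in Meis2-high and 1.82 to 5.49 CPM in Pax6-high cells. Its difference was 0.06 (SE 0.30, edgeR adjusted p = 0.877), with 2 of 4 libraries higher.

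Dusp6 (ENSMUSG00000019960; chromosome 10, 99263231 to 99267489, plus strand) encodes the phosphatase that switches off ERK. It stood at 5.83, 8.18, 6.35 and 7.29 CPM in Meis2-high cells, at 28.9, 16.1, 16.5 and 18.0 CPM in Pax6-high cells and at 34.4, 21.8, 16.2 and 20.5 CPM in Atoh1-positive cells. The Meis2-high class was lowest in each library. Pax6-high cells were higher by 1.50 (log2, SE 0.20, edgeR adjusted p = 5.12e-05). Atoh1-positive cells were higher than Atoh1-negative cells by 1.08 (SE 0.11, edgeR adjusted p = 5.58e-06).

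The promoters of Dusp6 and Spry2, the 2 of the 4 inhibitors with the most UMIs and with opposite classes, are shown for the 250 bases before the RefSeq start (GRCm38.p6, 5′ to 3′ along the gene). The letters searched, on both strands, were CCGGAA and AGGAAG, cores bound by ETS factors, and TAATTA, a core bound by Engrailed-type homeodomains. They are in capitals where they occur.
Dusp6 promoter, chr10:99262981-99263230, plus strand: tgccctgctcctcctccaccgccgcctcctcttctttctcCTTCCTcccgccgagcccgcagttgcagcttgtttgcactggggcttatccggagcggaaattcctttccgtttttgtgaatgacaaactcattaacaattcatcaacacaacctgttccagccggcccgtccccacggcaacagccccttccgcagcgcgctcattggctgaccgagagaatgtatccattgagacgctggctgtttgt
Spry2 promoter, chr14:105896820-105897069, minus strand: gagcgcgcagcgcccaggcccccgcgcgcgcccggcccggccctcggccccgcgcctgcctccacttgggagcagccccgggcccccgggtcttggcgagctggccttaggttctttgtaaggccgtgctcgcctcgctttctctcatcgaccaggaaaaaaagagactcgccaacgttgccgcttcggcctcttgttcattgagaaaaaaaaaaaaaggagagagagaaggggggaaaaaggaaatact
The Dusp6 window held 1 match, to AGGAAG on the opposite strand, beginning 210 bases before the start, and the Spry2 window held none. Of 32851 promoter windows of this length, 29.5% held AGGAAG, 12.03% CCGGAA and 4.84% TAATTA. A match describes these letters only.

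Etv5 (ENSMUSG00000013089; chromosome 16, 22381309 to 22439719, minus strand) had the most UMIs of the 10 genes, 3779. Its levels in Pax6-high cells were 79.5, 22.7, 25.7 and 71.8 CPM in control replicates 1 and 2 and CKO replicates 1 and 2, and in Meis2-high cells 21.9, 5.79, 6.58 and 19.6 CPM. The ratio of the classes was nearly the same in each library, with log2 values of 1.86, 2.07, 1.94 and 1.82, although the level itself was high in 1 library of each group and low in the other. The fitted difference was 1.98 (SE 0.11, edgeR adjusted p = 1.04e-07). Within Pax6-high cells Etv5 was higher with Atoh1, at 106, 44.3, 29.1 and 80.5 CPM, than without, at 49.2, 17.1, 6.60 and 41.3 CPM. Over all cells the difference with Atoh1 was 1.40 (SE 0.11, edgeR adjusted p = 1.14e-06).

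Etv4 (ENSMUSG00000017724; chromosome 11, 101769742 to 101785371, minus strand) followed at lower counts, with 14.6, 6.36, 10.0 and 11.5 CPM in Pax6-high cells and 4.37, 3.24, 4.23 and 3.93 CPM in Meis2-high cells. The classes did not overlap, and the difference was 1.42 (SE 0.21, edgeR adjusted p = 1.49e-04). Etv1 (ENSMUSG00000004151; chromosome 12, 38779380 to 38870484, plus strand) stood at 49.6, 34.8, 32.9 and 59.2 CPM in Pax6-high cells and at 19.9, 15.7, 28.9 and 42.1 CPM in Meis2-high cells. Here the class ranges overlapped, since CKO replicate 2 was high in both. The difference was 0.79 (SE 0.17, edgeR adjusted p = 0.00165), higher in 4 of 4 libraries.

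With Atoh1 as the divider, 6 of the 9 genes tested were called higher in Atoh1-positive cells and 0 lower, against 28.2% higher and 30.4% lower of all 13228 genes. Beside Fgf17, Fgf8, Dusp6 and Etv5 these were Etv4 (log2 fold change 0.97, SE 0.17) and Etv1 (0.31, SE 0.09), each higher in 4 of 4 libraries. Median depth was 2716 to 16381 UMIs in Atoh1-positive and 2070 to 2530 in Atoh1-negative cells. With every cell thinned to 2000 UMIs, only 6 of the genes had enough counts for the test. Of these 3 were called, Dusp6, Fgf17 and Etv5, so Fgf8 was not among the called genes. The differences of Etv4 (0.48, edgeR adjusted p = 0.277) and Etv1 (0.02, edgeR adjusted p = 0.938) did not pass. Without control replicate 1 the Etv1 difference was 0.26 and did not pass (edgeR adjusted p = 0.0772).

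**Figure D3:**
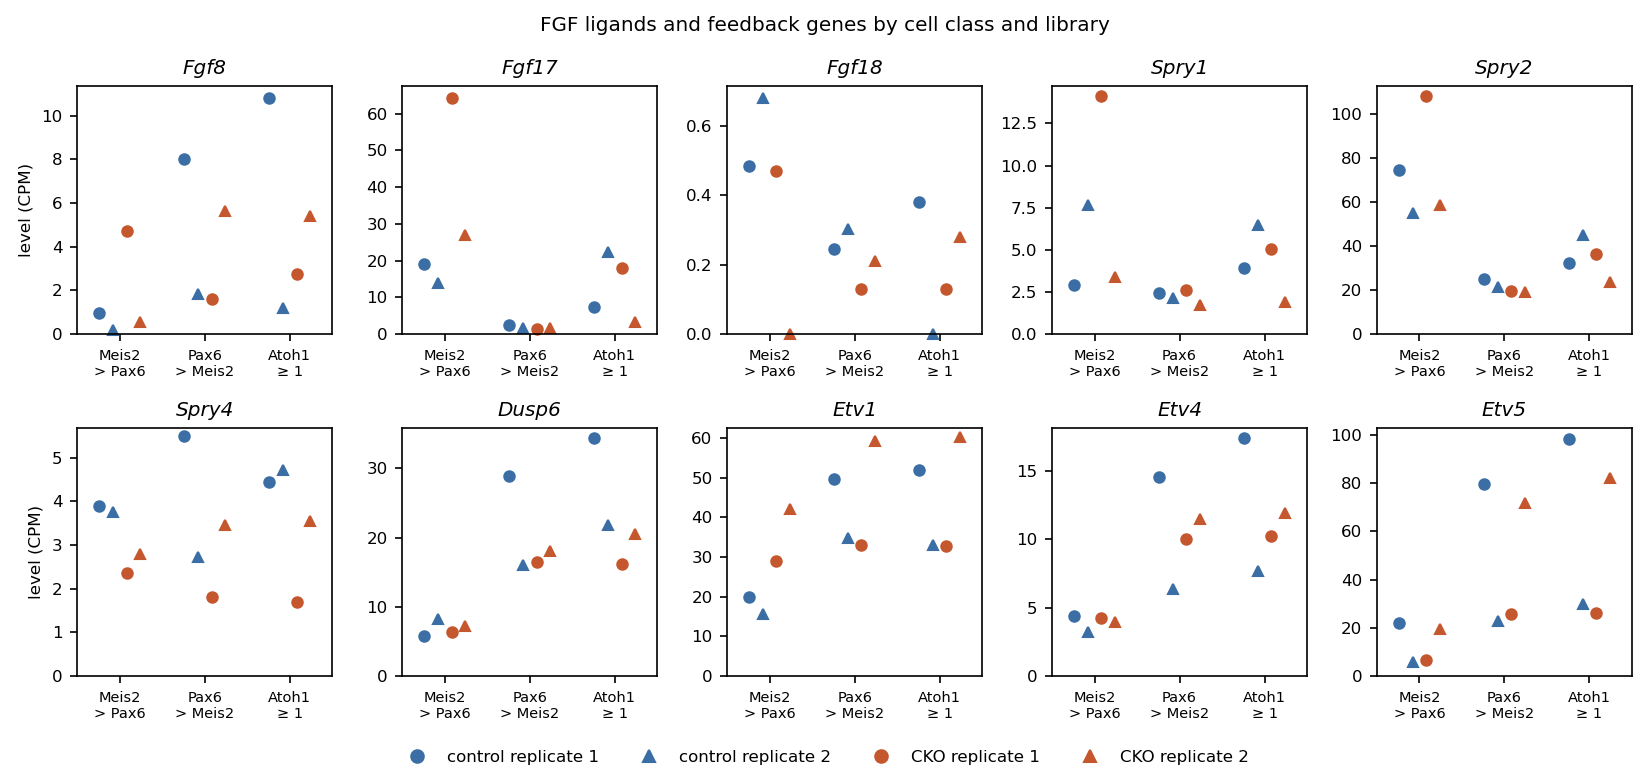
Level in CPM (vertical axes, linear, scaled by TMM within each class) of each of the 10 genes in Meis2-high, Pax6-high and Atoh1-positive cells, 1 point per library, blue for control and orange for CKO. Fgf17 and Spry2 are highest in Meis2-high cells, Dusp6, Etv4 and Etv5 in the other 2 classes, and control and CKO points interleave for most genes.

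The effect of losing En1 and En2 was tested within each class, between 2 control and 2 CKO libraries. By edgeR, 0 of 8 FGF genes were called in Meis2-high cells, 0 of 9 in Pax6-high cells and 0 of 9 in Atoh1-positive cells, and 2, 0 and 1 of them had an unadjusted p under 0.05, as did 14.7%, 9.82% and 4.16% of all genes tested. DESeq2 called 1, 0 and 0. Few genes of any kind were called by edgeR, 0.212%, 0.0574% and 0.0222% of those tested in the same order. The median log2 fold change of the FGF genes was 0.29, −0.26 and −0.33, against −0.01, −0.01 and −0.02 over all genes tested.

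In Meis2-high cells Fgf17 was the largest of these differences. Both CKO libraries, at 64.4 and 26.9 CPM, were above both controls, at 18.9 and 13.97 CPM. The log2 fold change was 1.57 (SE 0.37), which did not pass (edgeR adjusted p = 0.129). It passed with DESeq2 (1.53, adjusted p = 0.0340), without control replicate 1 (1.77, edgeR adjusted p = 5.84e-04) and without CKO replicate 2 (2.04, edgeR adjusted p = 0.00133). Without CKO replicate 1 it was 0.75 and did not pass. The share of Meis2-high cells with an Atoh1 UMI was larger in the CKO libraries, 31.9% and 20.4% against 14.4% and 8.40%. Those cells had median depths of 13873 and 8966 UMIs in the CKO libraries against 3130 and 2660 in the controls. An Atoh1 UMI is more readily seen in deeper cells, and this share was not compared at 1 depth. Within Meis2-high cells with Atoh1 the Fgf17 levels of both groups overlapped, at 69.0 and 53.8 CPM in the controls and 92.7 and 46.4 CPM in the CKO libraries. Without Atoh1-positive cells the log2 fold change was 0.29 (edgeR adjusted p = 0.999), and among deep cells (4000 or more UMIs, mitochondrial share up to 5%) it was 0.40. Precursor markers summed to 641 and 482 CPM in the controls and 1035 and 869 CPM in the CKO libraries, all 6 tested pointing up and 0 called. Granule lineage markers summed to 2032 and 2188 CPM in the controls and 2877 and 3160 CPM in the CKO libraries, with 6 of 8 pointing up. Ventricular zone and glia markers summed to 522 and 400 CPM in the controls and 890 and 766 CPM in the CKO libraries, with 4 of 5 tested pointing up. None of either list was called, and the part of these markers in the Fgf17 difference was not tested. Dissociation response genes summed to 192 and 196 CPM in the controls and 356 and 205 CPM in the CKO libraries. More Fgf17-bearing cells and more Fgf17 RNA per cell cannot be told apart in such class sums.

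Etv1 was the second. Its Meis2-high levels were 19.9 and 15.7 CPM in the controls and 28.9 and 42.1 CPM in the CKO libraries, with no overlap, and the log2 fold change was 1.00 (SE 0.28, edgeR adjusted p = 0.168). Without Atoh1-positive cells the Etv1 difference was 1.38 (edgeR adjusted p = 0.236). Those remaining cells had (without TMM scaling) 19.6 and 14.1 CPM in the controls and 35.7 and 51.1 CPM in the CKO libraries. In Pax6-high cells Etv1 did not separate the groups (log2 fold change 0.11, SE 0.29). The difference between the 2 effects was −0.90 (SE 0.22, edgeR adjusted p = 0.263). Without Atoh1-positive cells it was −1.40 and passed (edgeR adjusted p = 0.0297). It also passed without control replicate 2 (−1.04, edgeR adjusted p = 0.0269).

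Spry4 was below both controls in both CKO libraries in Meis2-high cells (log2 fold change −0.59, SE 0.54, edgeR adjusted p = 0.679). So 2 of the 8 tested genes were higher and 1 was lower without overlap, against 22% higher and 22.6% lower of all genes in Meis2-high cells. In Pax6-high cells 0 were higher and 1, Spry2 (−0.26, SE 0.21), was lower, against 22.9% and 23.5%. In Atoh1-positive cells 0 were higher and 2 were lower, against 17.2% and 18%. Those 2 were Dusp6, from 34.4 and 21.8 to 16.2 and 20.5 CPM (−0.66, SE 0.28, edgeR adjusted p = 0.970), and Spry4, from 4.46 and 4.72 to 1.70 and 3.56 CPM (−0.77, SE 0.49, edgeR adjusted p = 0.970). The Dusp6 difference was −0.19 without control replicate 1 and −0.17 with cells thinned to 2000 UMIs.

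**Figure D4:**
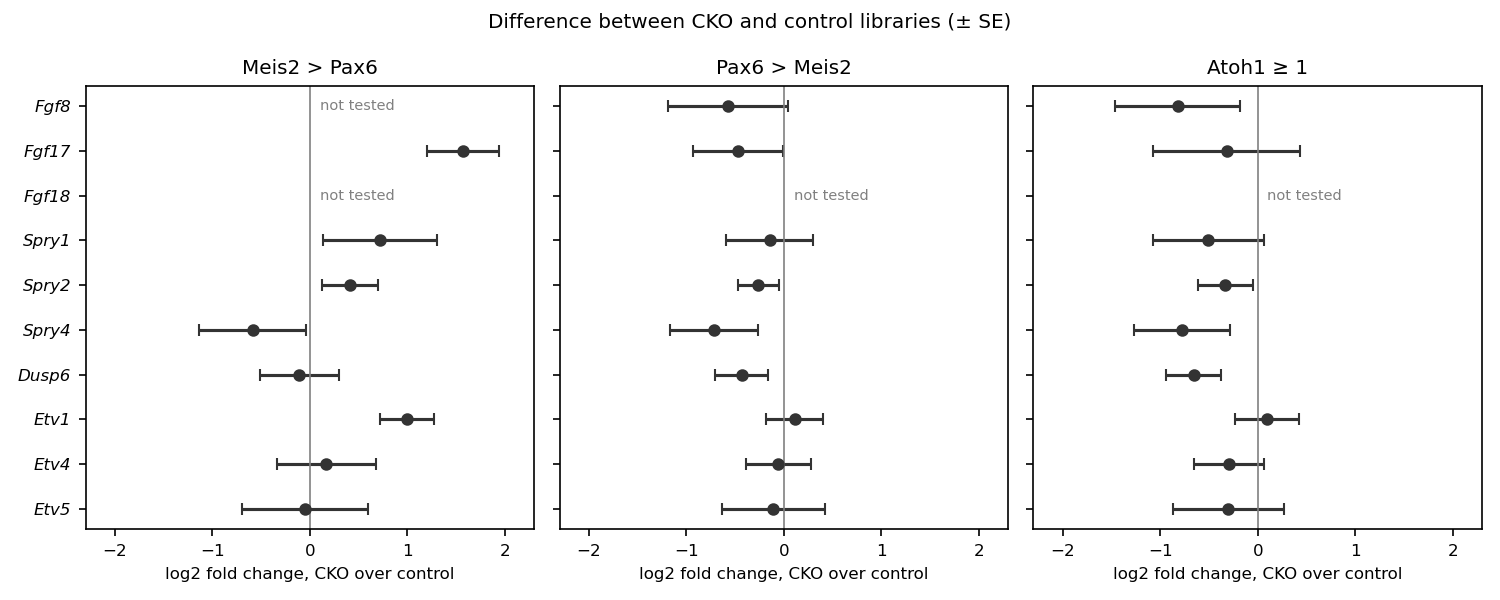
Log2 fold change of CKO over control libraries (horizontal axes) with SE for the 10 genes in the 3 classes. Genes too low for the fit are marked as not tested. The largest is Fgf17 in Meis2-high cells at 1.57, and none passed the adjusted threshold.

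Tests of whether the CKO effect differed between Pax6-high and Meis2-high cells called 0 of 9 FGF genes and 0.114% of all genes by edgeR, and 0 FGF genes by DESeq2. At an unadjusted p under 0.05, as for 5.64% of all genes, there were 4, Etv1 (above), Fgf17 (−1.76, SE 0.50), Spry2 (−0.60, SE 0.26) and Fgf8 (−3.26, SE 1.26). The Fgf8 value rests on the 3 cells of CKO replicate 1 named above, and was 0.20 without that library. Without CKO replicate 2 it passed (−4.69, edgeR adjusted p = 0.00138), and also with no filter on low counts (−3.18, edgeR adjusted p = 0.0345). The Fgf17 value passed without control replicate 2 (−1.86, edgeR adjusted p = 0.0184), without CKO replicate 2 (−2.49, edgeR adjusted p = 0.00142) and with no filter (−1.68, edgeR adjusted p = 0.0267). It was −1.03 without CKO replicate 1 and −0.30 without Atoh1-positive cells, and passed in neither.

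Shares of cells with a UMI were set side by side after thinning every cell to 2000 UMIs, and an exact permutation over the 4 libraries was run on each. With 2 libraries against 2 the smallest two-sided p is 0.333, so no share could pass. Fgf17 was seen in 0.983% and 1.65% of Meis2-high control cells and in 4.67% and 2.67% of CKO cells (exact permutation p = 0.333; adjusted over 30 comparisons, 1). Their 95% Wilson intervals ran from 0.383% to 2.50%, 1.07% to 2.53%, 3.01% to 7.18% and 1.23% to 5.69%, which cover counting error only. Before thinning the shares were 3.15%, 2.20%, 10.5% and 6.18%. Etv1 was seen in 3.69% and 2.80% of Meis2-high control cells and 4.67% and 5.33% of CKO cells (exact permutation p = 0.333). With cells thinned to 3000 UMIs the Etv1 shares of both groups overlapped, at 6.69% and 4.80% against 7.97% and 6.35%. Dusp6 was seen in 5.35% and 4.43% of Pax6-high control cells and 2.50% and 2.73% of CKO cells (exact permutation p = 0.333). In Pax6-high cells Spry1 reached the same p, at 0.635% and 0.385% against 0.132% and 0.349%. Its shares rested on 7, 2, 1 and 6 cells. Etv4 there reached it too, at 2.18% and 1.16% against 2.24% and 2.39%. No other of the 30 comparisons did. Ties aside, a share of 0.333 of comparisons would reach it on average with no difference between the groups.

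The larger contrast for Etv5 was between libraries of 1 genotype. Control replicate 1 and CKO replicate 2 were high in all 3 classes, and control replicate 2 and CKO replicate 1 were low, at 98.3 and 82.3 CPM against 30.1 and 26.3 CPM in Atoh1-positive cells. Fgf8 showed the same order in Pax6-high cells, as did Etv1. The inducible ERK phosphatase gene Dusp5 did too, at 90.7 and 90.4 CPM in the high libraries and 35.4 and 57.8 CPM in the low ones. Spry2 did not, and its Pax6-high levels stayed between 19.2 and 24.8 CPM. No label separates the libraries in this way, and the grouping is read from the values, so it was not tested.

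The other FGF pathway genes, 63 from a fixed list, gave the surroundings of these patterns. In the CKO comparisons edgeR called 0 of the 39, 45 and 42 tested in Meis2-high, Pax6-high and Atoh1-positive cells, with 5, 6 and 2 at an unadjusted p under 0.05 (14.7%, 9.82% and 4.16% of all genes), and DESeq2 called 0, 1 and 0. Between Pax6-high and Meis2-high cells 3 of the 6 other FGF family genes tested were called. Fgf12 was higher (log2 fold change 1.14), and Fgf14 (−1.12) and Fgf9 (−0.81) were lower. Of 3 receptor genes 2 were called higher, Fgfr2 (1.89, SE 0.17) and Fgfr4 (1.38, SE 0.21). Fgfr2 stood at 18.6, 19.4, 21.3 and 24.9 CPM in Pax6-high cells and at 5.34, 4.26, 6.82 and 7.85 CPM in Meis2-high cells. Fgfr1, the receptor most tied to cerebellar FGF8 signalling, did not differ beyond the error (0.08, SE 0.09, edgeR adjusted p = 0.498). Fgfr3 stayed at or below 1.46 CPM in the 3 classes, and Fgfrl1, a receptor without a kinase, was higher with Atoh1 (0.92, SE 0.29).

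Of 17 adaptor and cascade genes 3 were called higher and 5 lower in Pax6-high cells, with Frs3, an adaptor of FGF receptors, the farthest at −1.29 (SE 0.19). Of 10 inhibitors and modulators tested 3 were called higher, Dusp5 (1.85), Spred1 (0.69) and Spred2 (0.59), and 3 lower. The 3 lower ones were Flrt3, a receptor-binding membrane protein gene (−1.73), the ERK phosphatase gene Dusp4 (−1.30) and Cnpy1 (−1.03). Pax5, a midbrain-hindbrain factor, was lower (−3.38), and Otx2 (3.08) and Sp5 (2.21) were higher. In Atoh1-positive cells the FGF family genes Fgf3 (−2.09), Fgf11 (−0.89, though higher in 1 of 4 libraries), Fgf9 (−0.68) and Fgf12 (−0.43) were called lower. Of the 7 such genes tested 0 were called higher, and Fgfr2 (0.98) and Fgfr4 (1.07) were higher.

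Likeness of pattern was read for the 4 genes with at least 100 UMIs in every library, as Pearson's r of log2(CPM + 1) over 12 sums, 4 libraries by 3 classes without overlap, among 7254 genes of at least 20 CPM. The sums share libraries and differ in depth, so r is a description. Nearest to Spry2 were Pou3f2 (r = 0.97), Rnf227 (0.96) and Lmcd1 (0.96). Nearest to Dusp6 were Etaa1 (0.95), Suv39h1 (0.94) and Polr2k (0.94). Nearest to Etv5 were Xrcc5 (0.98), Larp7 (0.97) and Bmpr1a (0.95). Nearest to Etv1 were Axin2 (0.90), Spred2 (0.90) and Oxr1 (0.87).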

How the data were processed

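Single-cell libraries were made with the 10x Genomics 3′ chemistry from sorted cells. Per the file headers the authors ran Cell Ranger 5.0.0, and per the submitters' processing notes the build was mm10. The deposited values are raw UMI counts per gene and barcode. Of the 32285 gene IDs 32158 were found in GENCODE M21 (GRCm38), from which coordinates come. Barcodes with at least 500 genes, 1000 UMIs and at most 10% mitochondrial UMIs were kept, and their counts were summed per library and class, 1620097 to 29253054 UMIs each. Sums were fitted in R 4.3.3 with edgeR 4.0.16, using its two-sided quasi-likelihood test with TMM factors after the filterByExpr filter. SEs were derived from the fold change and its F statistic, and a gene is called at a Benjamini-Hochberg adjusted p under 0.05 over all genes tested. CPM by class are TMM-scaled. CPM divided by an Atoh1 or ligand UMI are not. Alternatives were DESeq2 1.42.0, RLE factors, no filter, simulated-doublet removal, deep cells, thinning, replicate blocks and leaving out each library or the Atoh1-positive cells. The fits were tested on simulated data. Shares were compared with scipy 1.17.1.

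The genes named are the 10 FGF genes, En1, En2, the FGF receptors, up to 10 called pathway genes per comparison by size, markers, and the 3 genes most alike in pattern. Otx2, Sp5, Cnpy1, Flrt3, Pax5 and Dusp5 levels beside ligands or libraries were chosen after values were seen. All members and lists were chosen with earlier results of these data known.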

Additional observations from a re-analysis of the deposited data

How the results depend on the processing

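The differences of Fgf17, Spry2, Dusp6, Etv1, Etv4 and Etv5 between Pax6-high and Meis2-high cells were called in the same direction under each alternative that could fit them, while counts of genes called for the CKO effect depended strongly on the method. In Meis2-high cells edgeR called 25 genes, and 559 with no filter on low counts (2 FGF genes, Fgf17 and Etv1), 174 with DESeq2 (1 FGF gene, Fgf17), 10 with doublets removed, 42 in deep cells, 9 with thinned cells and 7 without Atoh1-positive cells. In Pax6-high cells the 8 became 4 with RLE factors, 348 with no filter, 91 with DESeq2, 4 with doublets removed, 1 in deep cells and 3 without Atoh1-positive cells. In Atoh1-positive cells the 3 became 182 with no filter, 22 with DESeq2 and 0 in deep cells. Leaving out 1 library at a time gave 44 to 751 genes (0 to 1 FGF gene) in Meis2-high, 2 to 123 in Pax6-high and 6 to 121 in Atoh1-positive cells. The lone library left in a group is there assumed to vary like the others. Between Pax6-high and Meis2-high cells 6473 genes were called, and 3706 with thinned cells. With Atoh1 as the divider 7756 were called, 5152 in deep cells and 2532 with thinned cells (3 FGF genes). The difference of CKO effects between classes called 15 genes, and 84 with no filter (2 FGF genes), 70 in deep cells, 23 with thinned cells, 33 without Atoh1-positive cells (1 FGF gene) and 28 to 422 without 1 library (0 to 2 FGF genes). The causes of these shifts were not tested.

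The deviations of same-numbered libraries from their group means correlated at −0.2116 in Meis2-high, −0.1587 in Pax6-high and −0.2402 in Atoh1-positive cells. With 2 libraries a group, the deviations within each group are exact opposites. Crossed numbers therefore give the same values with the opposite sign, and the correlation cannot decide between these pairings. The labels do not say which libraries belong together, so the main fits did not pair control with CKO libraries. With the replicate number as a block 58 genes were called in Meis2-high and 0 in Pax6-high cells, and Fgf17 in Meis2-high cells was 1.36 (edgeR adjusted p = 0.0586). The block moved Etv5 in Meis2-high cells to 0.0011 and Etv4 in Pax6-high cells to 0.058. Crossed numbers, a pairing chosen after seeing the data, gave 763 genes (2 FGF genes), 207 and 191 in the 3 classes, with Etv5 at 0.0034 in Meis2-high and Etv4 at 0.038 in Pax6-high cells.

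None of the CKO effects that changed sign had passed the test with all 4 libraries. In Meis2-high cells Etv4 became −0.14 with doublets removed, and Etv5 became 0.99 in deep cells and 0.11 with thinned cells. In Pax6-high cells thinning gave 0.36 for Etv4 and −0.0024 for Etv1, and Fgf8 was 0.59 without Atoh1-positive cells. In Atoh1-positive cells Etv1 was −0.026 in deep cells, and thinning gave 0.21 for Fgf17, 0.071 for Spry2 and 0.17 for Etv5. The Spry2 difference of effects was 0.083 with thinning. Without 1 library at a time, Meis2-high values ran from −0.89 to 1.07 for Etv5, −0.27 to 0.21 for Dusp6, −0.77 to 1.71 for Spry1 and −0.12 to 0.78 for Spry2. Pax6-high values ran from −0.45 to 0.16 for Spry1, −0.73 to 0.15 for Dusp6, −0.42 to 0.81 for Etv4, −0.65 to 0.032 for Fgf17, −1.04 to 1.16 for Etv5, −1.27 to 0.032 for Spry4, −1.76 to 1.09 for Fgf8 and −0.37 to 0.48 for Etv1. Atoh1-positive values ran from −0.64 to 0.59 for Etv4, −1.34 to 0.91 for Etv5, −1.39 to 1.85 for Fgf8, −0.40 to 0.55 for Etv1, −2.03 to 0.53 for Fgf17 and −1.40 to 0.027 for Spry1. Between classes Spry4 ran from −0.14 to 0.20, and with Atoh1 as the divider Spry4 ran from −0.32 to 0.041 and Spry2 from −0.011 to 0.18. The Fgf8 difference of effects ran from −4.69 to 0.20.

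Unthinned shares of cells with a UMI followed depth in direction: CKO minus control was then 10.9 percentage points for Spry2 in Meis2-high cells (1.88 with 3000 UMIs), and 4.84 for Dusp6 and 9.29 for Etv5 in Pax6-high and 5.46 for Dusp6 in Atoh1-positive cells, where thinning to 2000 gave values below 0. Without 1 library the thinned differences ran from −3.90 to 1.57, from −5.17 to 2.26 for Etv5 and from −1.94 to 0.50 for Dusp6 in Atoh1-positive cells. With 2 libraries a group, low-count ligands and the smallest classes limit what could be detected.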

Other observations

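Meis2-high cells with an Fgf17 UMI also differed from the other Meis2-high cells in Atoh1 and Slc17a6, as a description with no test. Atoh1, the precursor gene, stood at 486 and 170 CPM in Fgf17-bearing cells of control replicates 1 and 2 and at 395 and 220 CPM in those of CKO replicates 1 and 2. The other Meis2-high cells had 69.8, 36.9, 139 and 103 CPM. Slc17a6, which encodes a vesicular glutamate transporter of neurons, went the other way, at 102, 207, 127 and 125 CPM in Fgf17-bearing cells against 358, 343, 265 and 240 CPM in the rest. Other genes of precursors and neurons did not follow these 2. Mki67, a gene of cycling cells, stood at 86.9 CPM against 88.9 CPM in CKO replicate 1, and had 0, 3 and 2 UMIs in the Fgf17-bearing cells of control replicates 1 and 2 and CKO replicate 2, against 45.4, 29.3 and 80.1 CPM in the rest. Lhx9, a gene of nuclei neurons, stood at 111, 589, 609 and 238 CPM in Fgf17-bearing cells against 353, 488, 594 and 332 CPM in the rest. Lhx2, also a gene of nuclei neurons, stood at 119, 495, 464 and 333 CPM against 221, 177, 329 and 250 CPM. It was thus lower beside Fgf17 in control replicate 1 and higher in control replicate 2 and both CKO libraries. Tbr1, another, had 0, 9, 4 and 0 UMIs in Fgf17-bearing cells, at 42.4 CPM against 33.1 CPM in control replicate 2 and 4.24 CPM against 24.5 CPM in CKO replicate 1. Fgf17 RNA was also unevenly spread over cells, the 5 cells with the most UMIs holding 25.3% to 36.7% of a library's Fgf17 UMIs.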
